A study of Mus musculus with 10 samples.

Results

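The microRNAs miR-204 and miR-211 are the pair of hairpins best known from pigmented cells of the eye. The 4 mature arms that they give, mmu-miR-204-5p, mmu-miR-204-3p, mmu-miR-211-5p and mmu-miR-211-3p (written without mmu- from here on), were taken by name from the 1340 mature miRNAs measured in the RPE/choroid/sclera of the mouse, the layers behind the neural retina. All 4 were listed above 0 in every library, and all 4 were among the 588 miRNAs with a mean signal of at least 10. The samples were 5 right eyes and 5 left eyes from C57BL/6J animals of wild type genotype, aged postnatal day 34, which carry the numbers 61, 64, 65, 66 and 68, each shared by a right and a left eye. In each animal a goggle with a -20 dioptre lens sat over 1 eye for 10 days from postnatal day 24, to induce myopia, and the fellow eye had none. The labels give the side of an eye but not whether it wore the lens, so each side can hold lens-wearing and bare eyes, and the comparison made here is right against left eye. The tissue label names RPE/choroid/sclera, while the extraction text speaks of retinae.

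A miRNA hairpin is cut into a 5p and a 3p arm, of which one is usually kept in the silencing complex and pairs with target mRNAs through its seed, bases 2 to 8 from the 5′ end. In both of these hairpins the 5p arm is the arm whose targets are better studied. Mitf, the pigment cell transcription factor, drives the host gene of miR-211 in human melanocytes and melanoma, and both miRNAs have been tied to the differentiated state of the human retinal pigment epithelium (RPE). In medaka fish miR-204 acts in lens and retina through Meis2, and a seed change in the human gene is known from inherited retinal dystrophy.

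The mature sequences show why the 5p arms are read as one family and the 3p arms are not. They are RefSeq entries on build GRCm38.p6, with the seed in capitals.
miR-204-5p: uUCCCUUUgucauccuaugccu
miR-211-5p: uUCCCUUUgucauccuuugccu
miR-204-3p: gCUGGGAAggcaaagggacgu
miR-211-3p: gCAAGGACagcaaaggggggc
Both 5p arms have 22 bases, share their seed, and are identical at 21 positions. They differ by A17U, counted from the 5′ end with the base of miR-204-5p first. The 3p arms have 21 bases, match at 14 positions, and have different seeds, so that a target site for one is not a seed site for the other. Of the mature mouse miRNAs in RefSeq, 1 other shares the seed of the 5p arms, miR-7670-3p, which is listed between 0 and 3.0 in these libraries, with 2 of them at 0. Among miRNAs with a RefSeq sequence, only the 5p arms of miR-204 and miR-211 therefore carry this seed at an appreciable level here. Such a sequence was found by name for 502 of the 588 kept miRNAs, and the seeds of the others were not checked. The seed of miR-204-3p is shared by miR-7684-5p, not analysed here, and that of miR-211-3p by no other RefSeq entry.

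The hairpins themselves show where each arm lies, with the mature arms in capitals.
miR-204 hairpin: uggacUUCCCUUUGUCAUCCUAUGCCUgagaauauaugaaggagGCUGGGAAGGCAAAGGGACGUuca
miR-211 hairpin: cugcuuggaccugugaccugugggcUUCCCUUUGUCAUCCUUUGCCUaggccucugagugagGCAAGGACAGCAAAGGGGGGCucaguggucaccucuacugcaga
The miR-204 hairpin lies at chr19:22750605-22750672 on the plus strand (GRCm38), in intron 6 of the 24 introns of the longest coding transcript of Trpm3 that spans it. Trpm3 encodes a cation channel. The miR-211 hairpin lies at chr7:64205806-64205911 on the plus strand, in intron 6 of the 26 introns of the longest such transcript of Trpm1. Trpm1 encodes the melastatin channel of melanocytes and retinal bipolar cells. Of the annotated transcripts that span a hairpin, 18 of Trpm3 and 12 of Trpm1, none has an exon over it in GENCODE M21. The host introns are 33462 and 3682 bases long. Each hairpin is intronic and on the strand of its host, whose transcript level was not analysed here.

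The authors' values are a normalised signal in which nearly the same ladder of values recurs in every library. Of the 250 highest ranks, 225 hold 10 values within 1 percent of each other, so for an abundant miRNA the value stands for its rank. The sums of the libraries lie between 11878152 and 11879036. Depth cannot be read from such values, and no counting error is given. The arms have nearly the same length, so their signals are compared without a length correction. In bulk tissue, fewer pigment cells and less of a miRNA per cell cannot be told apart.

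The 5p arm of miR-204 ranked first in all 10 libraries and had the single value of 1931810, 16.3% of the total signal. The next step of the ladder stands at 1149510, 1.68-fold lower. Any change of miR-204-5p that left it in first place is thus invisible, and its SD of 0 describes the ladder and not the eyes. Its level can be stated as first of 1340, and no more.

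The 5p arm of miR-211 was also abundant and did vary. In right eyes its signal was 27249 in number 61, 51789 in 64, 57345 in 65 and 38750 in both 66 and 68. Left eyes had 46093 in number 61, 37005 in 64, 57345 in 65, 48322 in 66 and 39684 in 68. Both eyes of number 65 shared the highest value, right eye 61 was the lowest by a wide step, and the sides overlap. The mean over the 10 libraries was 44233 ± 9676 (SD, n = 10), and the rank ran from 31 to 48 with a median of 36.5. By mean signal miR-211-5p took place 35. Its neighbours above were miR-151-3p at 52115 ± 8072, which exceeded it in 8 of 10 libraries, and miR-92a-3p at 46019 ± 10207. Just below stood miR-101a-3p at 44207 ± 10630 and miR-148b-3p at 42466 ± 4726. The last 3 each exceeded miR-211-5p in 5 of the 10 libraries, so these neighbours do not differ from it beyond their spread. miR-204-5p exceeded miR-211-5p by 33.7-fold to 70.9-fold, with a median of 45.3-fold. Since the upper value is fixed, this range is the spread of miR-211-5p alone. The sources used here do not say how Bowtie assigned reads that match both arms but for A17U, and the part of miR-211-5p that could be misassigned miR-204-5p was not tested.

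The 3p arms were far lower and close to each other on average. For miR-204-3p the right eyes had 716 in number 61, 600 in 64, 977 in 65, 831 in 66 and 529 in 68. In left eyes the signal was 649 in number 61, 513 in 64, 919 in 65, 805 in 66 and 622 in 68. Numbers 65 and 66 were high in both eyes, 64 and 68 low in both, and the sides overlap almost wholly. For miR-211-3p the right eyes had 805 in number 61, 1159 in 64, 669 in 65, 399 in 66 and 344 in 68. The left eyes had 872 in number 61, 886 in 64, 622 in 65, 731 in 66 and 383 in 68. Here numbers 61 and 64 were high in both eyes and 68 was low in both, while the eyes of 66 differed by 1.83-fold, the largest gap of this arm. The means were 716 ± 161 for miR-204-3p and 687 ± 260 for miR-211-3p (SD, n = 10), at places 188 and 190 by mean signal. The ranks ran from 163 to 204 for miR-204-3p and from 154 to 231 for miR-211-3p. Around them stood miR-106b-3p at 718 ± 120, miR-194-5p at 717 ± 84.3, miR-200a-3p at 709 ± 332, miR-139-5p at 683 ± 90.7 and let-7b-3p at 675 ± 228. None of these means differ by as much as their SDs.

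**Figure D1:**
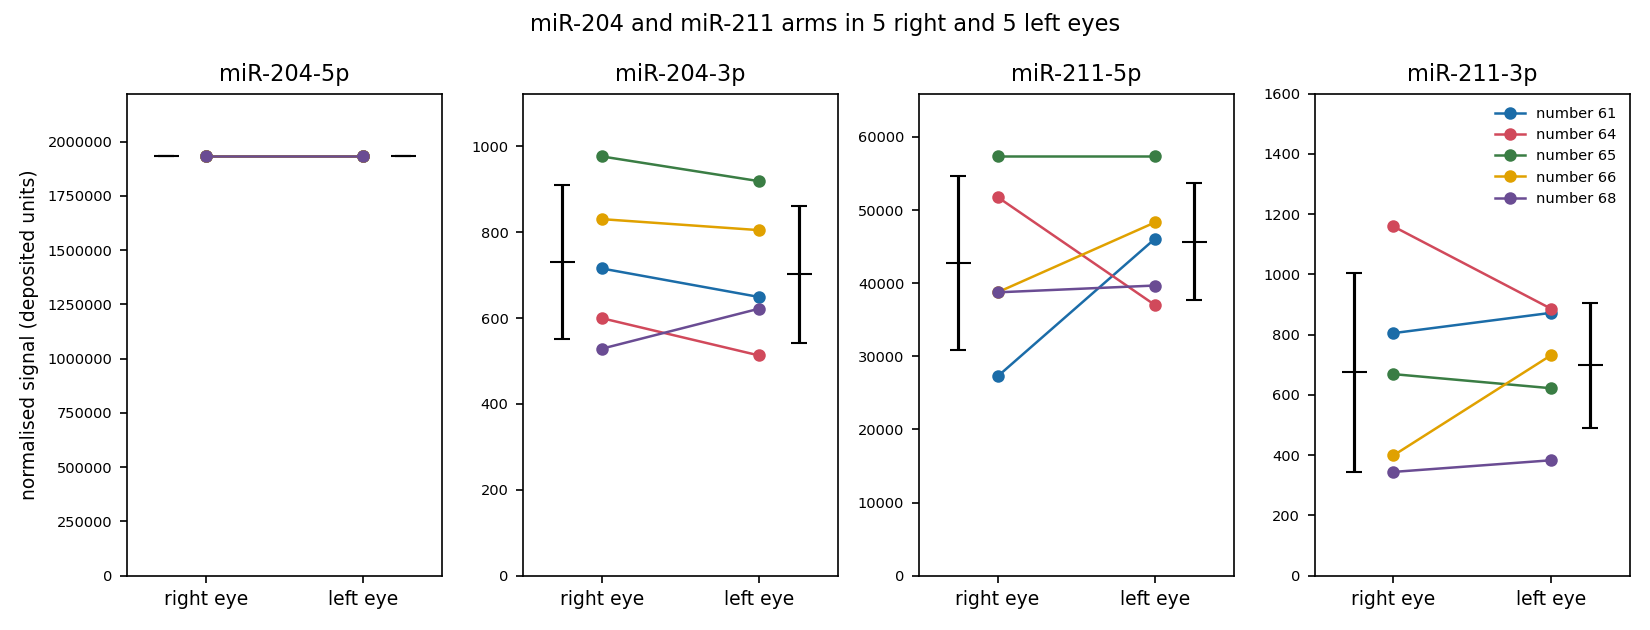
Normalised signal (linear axis from 0, one panel per arm) in the 5 right and 5 left eyes, with lines joining eyes of the same number and bars giving the mean and SD of each side. miR-204-5p is one value of 1931810 in all libraries, miR-211-5p spans 27249 to 57345, and in the 3p arms numbers 65 and 66 lead for miR-204-3p where 61 and 64 lead for miR-211-3p.

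**Figure D2:**
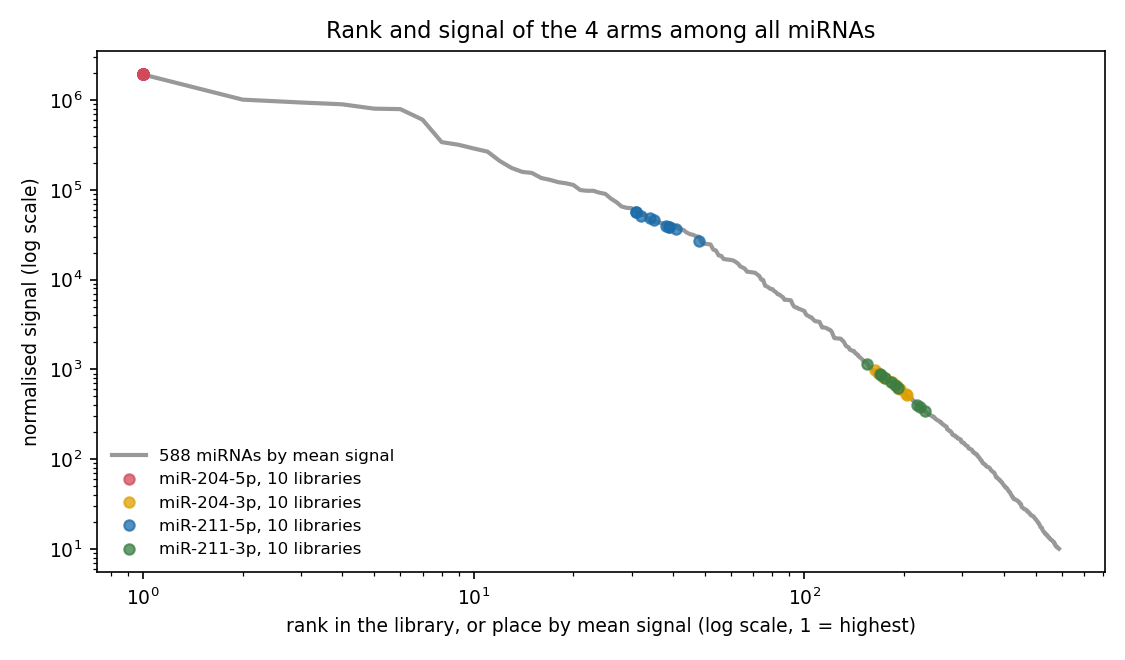
Signal against rank, both on log scales. The grey line gives the 588 miRNAs by mean signal and the points give each arm in each of the 10 libraries. The points lie along the line because the ladder of values is shared: miR-204-5p sits at rank 1, miR-211-5p at ranks 31 to 48, and both 3p arms between ranks 154 and 231.

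The first comparison set the arms of right eyes against those of left eyes. No miRNA of the 588 passed an adjusted p of 0.05 in limma (0% called), and 13 had an unadjusted p under 0.05 (2.21%), none of them one of the 4 arms. miR-211-5p averaged 42776 ± 11906 in right and 45690 ± 7975 in left eyes (SD, n = 5 each). It was higher in the right eye in 1 pair, lower in 3 and tied in 1. Its log2 fold change, right minus left on the log2(signal + 1) scale, was -0.13 with an SE of 0.16, a 95% interval of -0.51 to 0.26 and an adjusted p of 0.967 in limma. That value turned to 0.03 without number 61, whose right eye is the lowest library.

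For miR-204-3p the right eyes averaged 730 ± 179 and the left eyes 702 ± 160 (SD, n = 5 each). The right eye was higher in 4 pairs and lower in 1, number 68. Its log2 fold change was 0.05 with an SE of 0.09, a 95% interval of -0.17 to 0.28 and an adjusted p of 0.967 in limma. This was the tightest of the 3 intervals. miR-211-3p averaged 675 ± 330 in right and 699 ± 207 in left eyes, higher in 2 pairs and lower in 3. Its log2 fold change was -0.13 with an SE of 0.18, a 95% interval of -0.54 to 0.28 and an adjusted p of 0.967 in limma. Without number 66 it was 0.06. For miR-204-5p the difference is 0 by construction, and no interval is meaningful. One direction in all 5 pairs was shown by none of the 4 arms, against 12 of 588 miRNAs higher (2.04%) and 5 lower (0.85%) in every right eye.

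The second comparison set the 5p arm of each hairpin against its 3p arm, and asked whether their ratio differs between sides. The signal ratio of 5p to 3p arm was 1978 to 3767 for miR-204, with a median of 2838, and 33.9 to 113 for miR-211, with a median of 75.9. The 5p arm led in all 10 libraries for both. Both arms were kept for 158 hairpins, in 90 of which the 5p arm led, and the median absolute log2 ratio was 3.68. With a mean log2 ratio of 11.43 ± 0.32 (SD, n = 10), miR-204 took place 3 in the 5p-sided order, after miR-182 and let-7g. miR-211 was in place 23 of the 5p-sided order, at 6.08 ± 0.62. The spread of the miR-211 ratio was above the median SD over all 158 hairpins, 0.40, and that of miR-204 below it. The 5p value of miR-204 cannot move, so its ratio varies with the 3p arm only. Its place in the order rests on that fixed value. Its difference between sides is that of miR-204-3p with the sign turned, and does not read which arm is kept.

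By number, the miR-211 ratio of 5p to 3p signal was 33.9 in the right and 52.9 in the left eye of 61, and 44.7 and 41.8 in 64. It was 85.7 and 92.2 in number 65, 97.1 and 66.1 in 66, and 113 and 104 in 68, again right eye before left. Every eye of 61 and 64 lay below every eye of the other 3 numbers. That split was read from these same values, and how many of the 158 hairpins separate as cleanly was not counted. Differences in arm ratio between numbers were common, with an unadjusted p under 0.05 in limma for 47 of 158 hairpins (29.7%). Between sides the mean log2 ratio of miR-211 was 6.08 ± 0.75 in right and 6.07 ± 0.54 in left eyes (SD, n = 5 each), a difference of 0.005 with an adjusted p of 0.986 in limma. The sign of that difference turned when number 64, 66 or 68 was left out. For miR-204 the means were 11.40 ± 0.35 in right and 11.46 ± 0.33 in left eyes, a difference of -0.05 with an adjusted p of 0.974 in limma. No hairpin of the 158 passed (0% called) and 3 had an unadjusted p under 0.05.

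**Figure D3:**
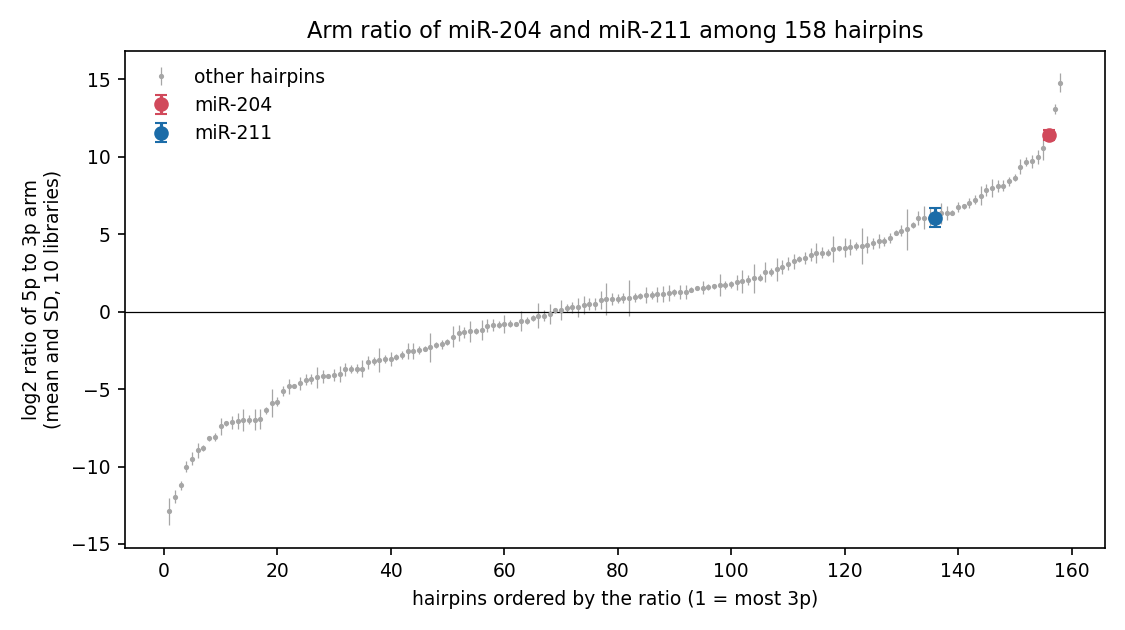
Arm ratio on a log2 scale (5p over 3p signal) for 158 hairpins, ordered from 3p-sided to 5p-sided, with the mean and SD over 10 libraries. miR-204 stands at place 3 from the 5p end at 11.43, and miR-211 lies lower at 6.08 with a longer error bar.

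The next comparison, chosen after the values were seen, asked whether the arms differ between the 5 numbers, with the right and left eye of a number as its 2 libraries. In each number 1 eye wore the lens, so these 2 libraries are not replicates of an animal. Gaps between fellow eyes, and the spread used in the fit below, can hold a lens effect, which was not tested. The means of the 2 eyes spanned 1.70-fold for miR-204-3p, from 556 in number 64 to 948 in number 65, where the largest gap between fellow eyes was 1.18-fold. For miR-211-3p they spanned 2.81-fold, from 364 in number 68 to 1022 in number 64, with a largest gap between fellow eyes of 1.83-fold. miR-211-5p spanned 1.56-fold, from 36671 in number 61 to 57345 in number 65, less than the 1.69-fold gap between the eyes of number 61. The median gap between fellow eyes, on the log2 scale, was 0.14 for miR-204-3p, 0.15 for miR-211-3p and 0.32 for miR-211-5p. The log2 spans between numbers were 0.77 for miR-204-3p, 1.49 for miR-211-3p and 0.65 for miR-211-5p. Both 3p arms spanned more between numbers than their largest gap between fellow eyes, and miR-211-5p did not. A span over 5 means tends to exceed a median gap even where numbers do not differ, so the median gaps are a description only. No test compared the arms in this.

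The number terms of the limma fit, tested together, did not pass for any arm. The adjusted p was 0.0941 for miR-204-3p, 0.0951 for miR-211-3p and 0.405 for miR-211-5p. Unadjusted, 2 of the 4 arms had a p under 0.05 (0.00552 for miR-204-3p and 0.00792 for miR-211-3p). Over all 588 miRNAs 7 passed (1.19%) and 137 had an unadjusted p under 0.05 (23.3%), so differences between numbers are common in this table. Without number 66 miR-211-3p passed, at an adjusted p of 0.0306 in limma, as did 22 miRNAs in all, while at most 1 passed without any other number. For the arm ratios the adjusted p between numbers was 0.0566 for miR-211 and 0.0940 for miR-204, where 17 of 158 hairpins passed (10.8%) and 47 had an unadjusted p under 0.05 (29.7%). At most 3 hairpins passed without number 61, 64, 65 or 68. With only the miRNAs of mean signal at least 100, both ratios passed, at 0.00695 for miR-211 and 0.0155 for miR-204. The miR-204 ratio varies with its 3p arm only, so it does not read arm choice. In that setting miR-204-3p itself did not pass, at an adjusted p of 0.0529 in limma. The miR-211 ratio also passed with a pseudocount of 10 (0.0230) and without number 66 (0.0366). The labels do not tie a number to a litter, run or day, and these cannot be told apart from the animal.

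The 3p arms changed order between numbers. The signal of miR-204-3p divided by that of miR-211-3p was 0.889 in the right and 0.744 in the left eye of number 61, and 0.518 and 0.579 in 64. It was 1.46 and 1.48 in number 65, 2.08 and 1.10 in 66, and 1.54 and 1.62 in 68, right eye first. miR-211-3p was thus the higher arm in all 4 libraries of 61 and 64, and miR-204-3p in all 6 of the other numbers. The same miR-211-3p values enter its arm ratio, so this split and that of the arm ratio are not separate readings. It was seen in the values first, and how many other pairs of miRNAs cross in this way was not counted. For the abundant arm of miR-211 no such split appeared. The signal of miR-211-5p was 38.1-fold to 86.3-fold that of miR-204-3p, and both ends of that range were right eyes, 61 and 64. On the log2 scale this ratio was 5.86 ± 0.48 in right and 6.04 ± 0.12 in left eyes (SD, n = 5 each), a mean difference of -0.18 that was 0.002 without number 61.

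To describe how alike the arms are, the 45 pairs of libraries were compared in turn, and a pair was counted where both miRNAs put its libraries in the same order. Libraries of one number share an animal, so the 45 pairs are not independent and the counts carry no test. miR-204-3p and miR-211-5p agreed in 31 pairs and disagreed in 12. The arms of the miR-211 hairpin agreed in 22 and disagreed in 21, no more than the median of 22 pairs between miR-211-3p and the other kept miRNAs. miR-204-3p and miR-211-3p agreed in 18 and disagreed in 27. The abundant arm of miR-211 thus ordered the eyes more like the minor arm of miR-204 than like its own minor arm. Any miR-204-5p reads misassigned to miR-211-5p, a part that was not tested, could enter this likeness and the miR-211 arm ratio. The 31 pairs are not particular to these arms. Over the other 584 kept miRNAs the median was 22 pairs with miR-204-3p and 21 with miR-211-5p. The miRNA in place 20 by likeness shared 33 pairs with miR-204-3p, and that for miR-211-5p shared 31.

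Among the other 584 kept miRNAs, the 3 most like miR-211-3p were miR-744-5p, miR-30c-2-3p and miR-574-5p, each in the same order in 43 of 45 pairs. All 3 were high in both eyes of numbers 61 and 64 and lowest in right eye 68. At 40 pairs or more there were 16 such miRNAs, and 7 put at least 40 pairs in the opposite order. The most opposed were miR-362-3p, in 42 pairs, and miR-340-5p, in 41. The other arms had no such company. For miR-204-3p the most alike were miR-574-3p, miR-664-3p and miR-8114, each in 37 pairs, and for miR-211-5p they were miR-339-5p and miR-324-3p, in 37, and miR-345-5p, in 36. No miRNA reached 40 pairs with either. These names were picked as the highest of 584, so high counts are built in.

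**Figure D4:**
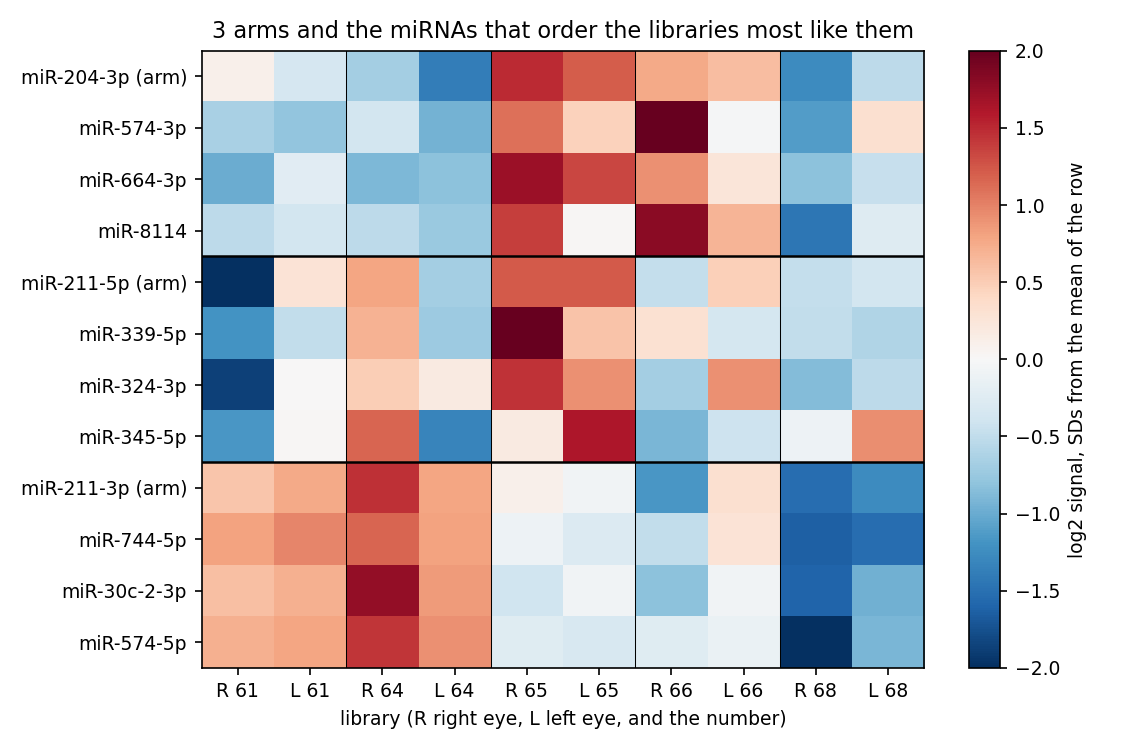
Log2 signal in SDs from the mean of each row, for 3 arms and, under each, the 3 miRNAs that put the libraries in the most similar order. Columns are right and left eyes by number. The lowest block is high in 61 and 64 and low in 68, miR-204-3p at the top is highest in both eyes of 65, followed by those of 66, and miR-211-5p is high in 65 with its lowest value in right eye 61.

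Because Mitf is known to drive the host gene of miR-211, the miRNAs reported to target Mitf (mostly in human melanoma cells) were described beside them. Of 9 on the list 7 were kept, 6 with a log2 fold change above 0 and 1 below, and none passed in either direction, where 0% of all miRNAs were called. The share of all 588 miRNAs above 0 was not counted. The median log2 fold change was 0.12, against 0.02 over all 588. This median is the value of miR-182-5p itself, and it was 0.08 without number 64, 65 or 68 and 0.06 with no filter on low signal. miR-25-3p, from an intron of Mcm7, averaged 12646 ± 1486 in right and 11183 ± 1622 in left eyes, a log2 fold change of 0.18. It was higher in 5 of 5 right eyes, as were 12 of all 588 miRNAs (2.04%). For miR-340-5p the right eyes averaged 2556 ± 800 and the left eyes 2282 ± 661, a log2 fold change of 0.15. miR-101a-3p had a log2 fold change of 0.14, miR-148a-3p of 0.06 and miR-148b-3p of 0.00. miR-218-5p was the member below 0, at -0.21 with an SE of 0.21. For miR-182-5p, also a photoreceptor miRNA, the log2 fold change of 0.12 had an SE of 0.45, and its highest library, right eye 68, had 1149510. The adjusted p of each was at least 0.967 in limma. The other members, miR-137-3p and miR-101b-3p, had mean signals of 5.15 and 6.00 and were not tested. By pairs, miR-101b-3p was lower in the right eye in 4 and higher in 1, and miR-137-3p was higher in 3 and lower in 2.

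**Figure D5:**
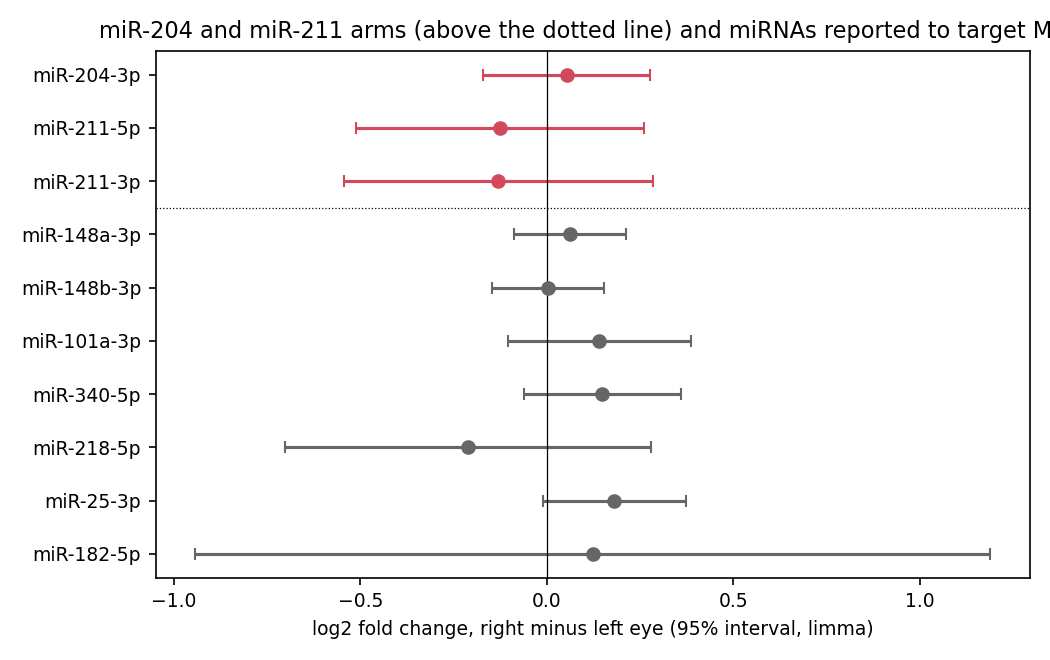
Log2 fold change, right minus left eye, with 95% intervals from limma, for the 3 arms that vary and the 7 tested miRNAs reported to target Mitf. All 3 intervals of the arms include 0, and that of miR-182-5p is the widest.

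The miRNAs listed as markers of other cell types were also present, and no defining list was at 0. Signal on a list does not by itself show that its cell type was in the dissected tissue. Whether listed miRNAs came from other cells, the pigment epithelium included, was not tested. The 5 photoreceptor and neuron miRNAs, led by miR-182-5p and miR-183-5p, summed to between 188960 and 1330350 in right eyes and between 262589 and 473451 in left eyes, with the highest sum in right eye 68. The 8 miRNAs of surface epithelium, cornea and lens, led by miR-184-3p and miR-205-5p, summed to 25706 to 206501 in right and 65729 to 246299 in left eyes. All 8 had a log2 fold change below 0, with a median of -0.98 against 0.02 over all 588, and 0 passed in limma, at an adjusted p of 0.967 each. Each of the 8 was higher in the right eye in 1 pair, and they come from the same libraries, so they are not separate readings. The part of these cells in the right-left values of the arms was not tested. The 6 striated muscle miRNAs, led by miR-133a-3p and miR-133b-3p, gave 42374 to 78601 in right and 25934 to 104132 in left eyes. The 4 red cell miRNAs, led by miR-486a-5p and miR-451a, gave 26495 to 60261 in right and 35348 to 53351 in left eyes. Against these, the sum of the 4 arms of miR-204 and miR-211 ran from 1960580 to 1990800 in right and from 1970210 to 1990700 in left eyes, of which miR-204-5p is nearly all.

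miR-211-3p and the leukocyte and endothelial sums mostly put the libraries in opposite orders, while the red cell sum shared its order in 28 of 45 pairs and opposed it in 17. The summed leukocyte list, led by miR-150-5p and miR-142a-5p, was 10561 to 16095 in right and 10850 to 16389 in left eyes. It ordered 41 of the 45 library pairs opposite to miR-211-3p. The endothelial pair, miR-126a-5p and miR-126a-3p, was 198138 to 341646 in right and 200955 to 266681 in left eyes and was opposite in 37 pairs. The 6 fibroblast and smooth muscle miRNAs, led by miR-143-3p and miR-199a-3p, were 847221 to 1025420 in right and 853305 to 1077090 in left eyes and were opposite in 36. The surface epithelium sum put 36 pairs in the same order as miR-211-3p. Such counts were common for this arm: of the other 584 kept miRNAs, 63 shared its order and 53 opposed it in at least 36 pairs. For miR-211-5p no list sum but that of its own family reached more than 30 of 45 pairs in either direction, and for miR-204-3p none but its own family reached more than 32. The part of these cell types in the values of miR-211-3p was not tested.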

How the data were processed

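Small RNA of the RPE/choroid/sclera was sequenced from TruSeq small RNA libraries, per the labels' protocols. The authors deposited a normalised signal per mature miRNA and library, and the submitters' processing notes name Bowtie, Partek and mouse build GRCm38 (mm10), without versions. The sources used here do not name the normalisation. Whole numbers (within 0.001) make up 7.31% of the values above 0 in the deposited signal table, so count models were not used and depth is unknown. Signals were analysed as log2(signal + 1), for the 588 miRNAs with a mean of at least 10, with limma 3.58.1 in R 4.3.3. The model had side and animal number as terms and a mean-variance trend (no trend for arm ratios). Tests were two-sided with Benjamini-Hochberg adjustment over all miRNAs or hairpins at 0.05. The code was tested on simulated data.

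The block follows the protocol, which sets each treated eye against its fellow eye. The pairing comes from the number that titles of a right and a left eye share. Across miRNAs, the 2 eyes of a number deviated from the means of their sides with correlations of 0.12, 0.45, 0.01, -0.13 and 0.28 for numbers 61, 64, 65, 66 and 68. The labels tie the numbers to nothing else, and p-values measure only the spread between these libraries.

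The members and lists were chosen with earlier results of these data known. Named miRNAs are the arms, same-seed miRNAs, neighbours by mean signal, the 3 most alike in library order for each arm that varies, all Mitf-list members and the 2 most abundant of each cell type list. The most opposed miRNAs, and those that lead the arm order, and the comparison between numbers, were added after values were seen. Sequences and positions are from RefSeq (GRCm38.p6) and all 4 arms matched. The deposited stop coordinate lies 1 base past the RefSeq end, and the RefSeq positions are printed. Host transcripts are from GENCODE M21. Alternatives were pseudocounts of 0.5 and 10, no filter, a minimum mean of 100, median centring, no block, and each number left out.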

Additional observations from a re-analysis of the deposited data

How the results depend on the processing

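No arm and no arm ratio passed between right and left eyes under any alternative. With no replicate block the log2 fold changes of the arms were -0.13 for miR-211-5p, 0.05 for miR-204-3p and -0.13 for miR-211-3p, the paired values themselves, with larger SEs (0.20, 0.20 and 0.34) and 0 miRNAs past the threshold either way. Median centring moved the fold changes by 0.001, and miR-204-5p then stood at 0.001 in place of 0. With 1 number left out, the log2 fold change ran from -0.28 to 0.03 for miR-211-5p, from 0.01 to 0.12 for miR-204-3p and from -0.26 to 0.06 for miR-211-3p. It turned positive for miR-211-5p without number 61 (0.033) and for miR-211-3p without number 66 (0.056). The difference in arm ratio ran from -0.12 to -0.01 for miR-204 and from -0.13 to 0.17 for miR-211, negative without number 64 (-0.019), 66 (-0.13) or 68 (-0.024). Without number 61, 1 hairpin passed between sides, and with any other number left out 0 did. Counts between numbers depended on the setting, and the cause was not tested. Of the miRNAs, 23 passed with a minimum mean of 100, 12 with median centring, and 0 to 22 with 1 number left out. Of the hairpins, 27 passed with a minimum mean of 100, 0 with no filter, and 0 to 20 with 1 number left out. The adjusted p between numbers then ran from 0.0812 to 0.272 for miR-204-3p, from 0.298 to 0.823 for miR-211-5p and from 0.0306 to 0.405 for miR-211-3p. In 16 checks of the arms and their ratios within a side, 0 libraries lay far from the other 4. A fixed ladder of values limits what can be seen of miR-204-5p at any depth.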

Other observations

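The base makeup of the miRNAs that order the libraries like an arm was looked at after the orders were seen, and no test was made. Both 3p arms are rich in G, with 10 of 21 bases each, and both 5p arms hold 2. Of the 20 miRNAs most like miR-211-3p, all with a RefSeq sequence, the median share of G was 36.4%, against 17.4% for the 19 of the 20 most opposed that have one and 23.8% for the 502 kept miRNAs with a sequence. Their median GC share was 53.4%, against 36.4% for the opposed and 50.0% for all. For miR-204-3p the order was the other way: the 17 of 20 most alike with a sequence had a median G share of 13.6%, and the 18 of 20 most opposed had 26.7%, although miR-204-3p itself is as rich in G as miR-211-3p. For miR-211-5p the medians were 18.6% in the 16 most alike with a sequence and 25.0% in the 20 most opposed. The 3p arms also share a run of 8 bases, GCAAAGGG, which starts at base 10 of each. All were TruSeq small RNA libraries, and the labels do not tie the numbers to a run or day. The part of base makeup in the levels was not tested.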
